A study of Arabidopsis thaliana with 21 samples.

Results

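The H3K27me3 domains described here were shorter than 6 kb, and held no region of FIE, AZF1 or BPC1 in the deposited lists. They numbered 1761 of the 3940 H3K27me3 domains on the nuclear chromosomes. They were chosen by 3 criteria: a width under 6000 bp, no overlap of even 1 bp with a listed region of the 3 proteins, and a midpoint outside the centromere-proximal windows. Those windows ran from 13 to 17 Mb on chromosome 1, 2 to 6 Mb on chromosomes 2 and 4, 11 to 16 Mb on chromosome 3 and 10 to 14 Mb on chromosome 5. The rest of the chromosomes is called the arms. Unbound below means only that no listed region of the 3 proteins overlaps the domain.

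Trimethylation of lysine 27 on histone H3 (H3K27me3) marks genes held silent by Polycomb repressive complex 2 (PRC2) in plants and animals. In Arabidopsis thaliana the mark usually lies over single genes or short stretches of neighbouring genes. FIE is the WD40 subunit of PRC2. Profiled beside it were the DNA-binding proteins AZF1, which carries C2H2 zinc fingers, and BPC1, a BASIC PENTACYSTEINE protein from a family known to recognise GA repeats.

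Chromatin immunoprecipitation with sequencing (ChIP-seq) was carried out on untreated plants aged 30 h from a long-day regime, 16 h light then 8 h dark. The 21 samples formed 7 groups of 3 biological replicates. H3K27me3 and total histone H3 were precipitated from Col plants without a transgene. FIE was precipitated through an HA tag from the C24 accession, in plants with pFIE:FIE-HA in fie-11, and the C24 input came from the same plants. AZF1 and BPC1 were precipitated through Myc tags from Col plants carrying gAZF1-Myc or gBPC1-Myc, and the Col input came from the gAZF1-Myc plants. FIE was thus mapped in another accession than the mark, and the absence of a FIE region is an absence in C24. In bulk plant material a mark in few cells and a low level in many cells cannot be told apart. Each list holds 1 value per region and none per replicate. The spread between replicates is therefore unknown, and no test was made. Fold enrichment is the authors' value for a region over its control; the series design pairs the mark with H3, while the list itself names no control. The number of reads behind a region is unknown.

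The 1761 domains made up 50.2% of the 3507 H3K27me3 domains on the arms, and 31.6% of the arm sequence under the mark, 4520 of 14304 kb. Their share of arm domains ranged from 48.9% on chromosome 5 to 51.8% on chromosome 2. Of the other arm domains, 780 were shorter than 6 kb and held FIE, 250 were shorter than 6 kb and held AZF1 or BPC1 without FIE, and 716 were 6 kb or wider. Domains without a listed region were also found above the limit, where 277 of the 716 wider domains (38.7%) held none of the 3 proteins.

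Widths of the unbound shorter domains ran from 114 to 5991 bp, with a median of 2439 bp and quartiles of 1389 and 3636 bp. Shorter domains with FIE had a median of 3082 bp, and those with AZF1 or BPC1 alone 1926 bp. Narrow fragments were part of the set: 298 unbound domains (16.9%) were under 1 kb wide and 160 under 500 bp. Median fold enrichment over H3 was 2.90 in the unbound domains, 3.08 in shorter domains with FIE, 2.98 in those with a factor alone and 3.14 in the wider domains. The order of the first pair was the same on every chromosome, with medians of 2.88 to 2.93 for unbound domains and 3.05 to 3.15 for domains with FIE. The ranges overlapped almost fully, from 1.26 to 4.29 in unbound domains and from 2.49 to 4.39 in those with FIE. The lowest value belonged to a fragment of 165 bp near the end of chromosome 2, and the next lowest was 2.48. These values come from the contrast that chose the domains and are a description.

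**Figure D1:**
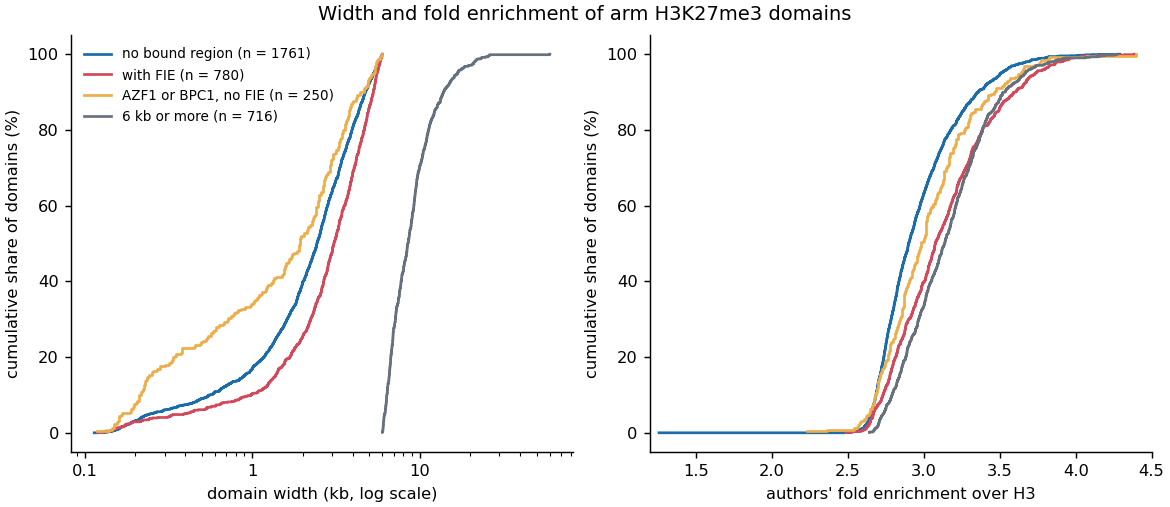
Cumulative share of arm H3K27me3 domains by width (left, kb on a log axis) and by the authors' fold enrichment over H3 (right), with 1 curve per kind of domain. The curve of the 1761 domains without a bound region lies to the left of the others over most of the range of fold enrichment, with a median of 2.90, and between the bound kinds in width.

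The significance values showed the same order. The median −log10 q was 12.58 in unbound domains, with 10 as the lowest value in the list, and 14.88 in shorter domains with FIE. Sorted by fold enrichment into 5 equal groups of arm domains, unbound shorter domains made up 68.8% of the lowest group and 32.5% of the highest, while shorter domains with FIE made up 15.7% and 31.2%. Width and fold enrichment were nearly unrelated among the unbound domains (Pearson r = 0.04, Spearman rho = 0.05, across 1761 domains of the same pooled libraries). The difference from domains with FIE was also seen at matched width. Between 2 and 3 kb the median fold was 2.90 in 422 unbound domains and 3.07 in 174 domains with FIE. Between 5 and 6 kb it was 2.95 in 137 and 3.22 in 111. Unbound domains made up 64.2% of arm domains under 1 kb wide, 71.2% of those between 1 and 2 kb and 51.9% of those between 5 and 6 kb. A wider domain has more sequence in which an overlap of 1 bp can occur, so the rule itself bears on these shares.

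**Figure D2:**
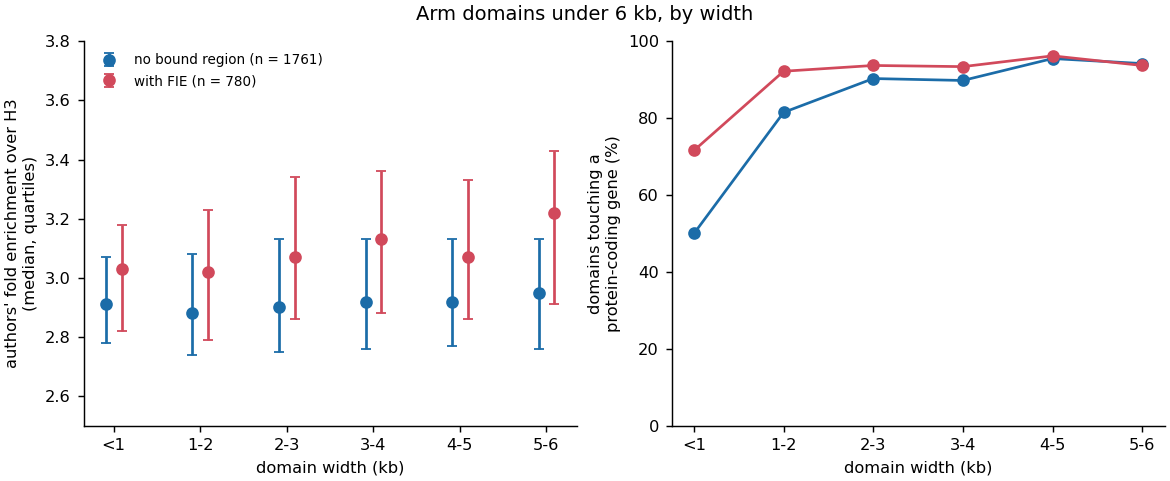
Arm domains under 6 kb in bins of 1 kb width, without a bound region (blue) and with FIE (red). Left, the median of the authors' fold enrichment with its quartiles, lower for unbound domains in each of the 6 bins. Right, the percentage of domains that touch a protein-coding gene, 50% against 71.6% below 1 kb and 94.2% against 93.7% between 5 and 6 kb.

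The bound regions nearest to these domains were mostly not at their edges. The rule left out every domain that overlaps a listed region, which favours larger distances. No other set of domains is set beside them, so the values do not show whether they are unusually large. The median distance from a domain edge to the nearest FIE region was 17340 bp, with quartiles of 6891 and 36879 bp, and the farthest domain lay 189639 bp away. AZF1 regions lay a median of 16491 bp away. For BPC1, whose list is shorter, the median was 29611 bp. A region of any of the 3 proteins lay within 1 kb of 83 domains (4.71%) and within 5 kb of 582 (33.0%). A FIE region, with or without the other proteins nearby, lay within 1 kb of 49 domains. The closest pair was a domain over CLPB4 and AT2G25150 (chromosome 2, 10702134 to 10704985), which lay 98 bp from an AZF1 region. Next was a domain at DREB1A, a gene of the cold response (chromosome 4, 13019117 to 13021114), 123 bp from a FIE region. DREB1A was covered over 20.4% and also touched another kind of arm domain. For these edge cases the word unbound also rests on where the authors' regions ended.

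**Figure D3:**
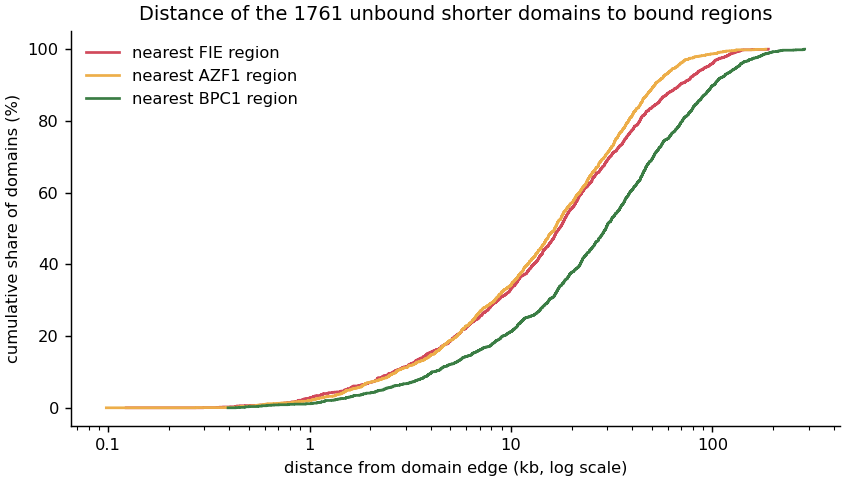
Cumulative share of the 1761 domains by distance from the domain edge to the nearest FIE, AZF1 or BPC1 region (kb, log axis). The median is 17340 bp to FIE, and 4.71% of domains lie within 1 kb of any of the 3 proteins. The rule left out domains that overlap a listed region, which favours larger distances.

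No overlap with a listed region is not the same as no call by the peak caller. Calls in the deposited files carry numbers that rise along the chromosomes without repeats, and many numbers are missing. The FIE list held 5142 rows under numbers that reached 16529, so at most 31.1% of its calls were kept if each number stands for 1 call. The corresponding shares were 23.1% for AZF1, 26.3% for BPC1 and 16.9% for H3K27me3. For each unbound domain the numbers of the flanking FIE regions give how many FIE calls were left out between them, though not where. That number was 0 for 41 domains (2.33%), which thus held no numbered FIE call. The median was 7 calls left out between the flanking regions. No left-out AZF1 call was possible for 43 domains and no BPC1 call for 54, and 0 of the 1761 domains met all 3 conditions. The 41 domains without a left-out FIE call had a median fold of 2.87, against 2.90 for the 1717 domains with 1 or more left out nearby. They lay a median of 5114 bp from a listed FIE region, against 17714 bp. The choice favours this difference in distance, since flanking regions with no call left out between them tend to lie close together. The lists therefore cannot tell an absent protein from one whose call was left out, for at least 1 of the 3 proteins at every one of these domains. Why calls were left out is not known from the lists.

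The spacing of the mark was also measured. The nearest other H3K27me3 domain was a median of 5866 bp away, against 6245 bp for shorter domains with FIE and 4740 bp for wider domains. It was itself an unbound shorter domain in 884 cases (50.2%), the same as the share of such domains among arm domains, 50.2%. In no case was it a centromere-proximal domain, so their lower share of the nuclear list, 44.7%, is not the fitting comparison. With gaps under 5 kb and no other kind of domain in between, 445 domains (25.3%) stood in 204 runs of at least 2. The longest runs had 4 members. The first of these, on chromosome 1, ran over AT1G15590 to AT1G15640, in domains of 2181, 1980, 1120 and 5471 bp with folds of 2.62, 3.16, 2.67 and 2.71.

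The rule did not use genes, but the width limit and the places where the 3 proteins were listed both bear on which genes remain. Of the 1761 domains, 1449 (82.3%, 95% Wilson interval 80.4 to 84.0) touched a protein-coding gene, and the share ran from 79.5% to 86.5% over the 5 chromosomes. Of the shorter domains with FIE, 714 of 780 did so (91.5%, 89.4 to 93.3; 89.1% to 94.3% over chromosomes), and of all arm domains 87.5%. The chromosome ranges of the 2 kinds did not overlap. The gap was widest among narrow domains, at 50% against 71.6% under 1 kb, and was not seen between 5 and 6 kb, at 94.2% against 93.7%. A single protein-coding gene was touched by 1021 unbound domains (58.0%), 2 by 334 (19%) and 3 or more by 94 (5.34%). A further 99 (5.62%) touched only genes of other types, and 213 (12.1%, 10.7 to 13.7) touched no annotated gene, against 3.72% (2.6 to 5.29) of shorter domains with FIE. Shorter domains with AZF1 or BPC1 and no FIE were close to the unbound ones with all widths pooled. Of these, 82.0% (76.8 to 86.3) touched a protein-coding gene and 9.20% (6.21 to 13.4) touched no gene. At matched width they touched a protein-coding gene more often than unbound domains below 3 kb and between 5 and 6 kb. The shares were 93.3% against 81.5% between 1 and 2 kb, and 96.1% against 90.3% between 2 and 3 kb. Between 3 and 5 kb the order was reversed. The 213 domains without a gene were narrow, with a median of 842 bp against 2636 bp for those at protein-coding genes, and their median fold was 2.91 against 2.90.

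**Figure D4:**
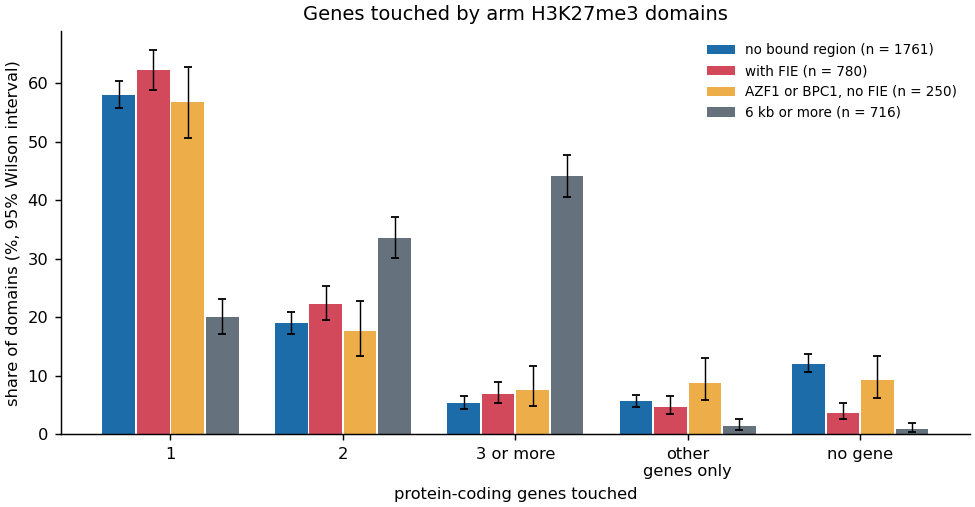
Share of arm H3K27me3 domains by the number of protein-coding genes they touch, with separate bars for domains that touch only other genes or none. Error bars are 95% Wilson intervals over domains. Unbound shorter domains resemble those with FIE in touching 1 gene most often, and differ in the share without a gene, 12.1% against 3.72%. That share was 9.20% in shorter domains with AZF1 or BPC1 and no FIE.

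Where a domain touched a single protein-coding gene it usually covered most of it. The median share of the gene body covered was 95.7%, and 445 of the 1021 domains (43.6%) covered the whole gene. These 445 genes had a median length of 1442 bp, and their domains reached a median of 1209 bp beyond the gene, both sides summed. Another 129 domains (12.6%) lay wholly inside their gene, with a median width of 730 bp in genes of 2682 bp. Shorter domains with FIE covered the whole gene in 51.4% of 486 cases. Domains with AZF1 or BPC1 and no FIE did so in 25.4% of 142 cases, and 42.3% of those lay inside the gene. Coverage was not compared at matched width. Of all shorter domains with AZF1 or BPC1 and no FIE, 34.0% were under 1 kb wide. That share was 16.9% of unbound domains and 10.4% of shorter domains with FIE.

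In all, 1961 protein-coding genes touched an unbound domain, which is 7.15% of the 27444 on the nuclear chromosomes and 7.54% of the 26024 on the arms. Their median length was 1718 bp, against 2078 bp for all protein-coding genes. At least 50% of the gene was covered for 1475 of them (5.37% of all). No listed summit of FIE, AZF1 or BPC1 lay inside the gene or within 1 kb for 1878 of the 1961 genes (95.8%), against 82.0% of all protein-coding genes. A listed FIE summit lay there for 38 of the 1961 (1.94%), against 9.33% of all. The choice of domains without a listed region favours both differences, and calls left out of the lists are not counted. Only 42 genes (2.14%) also touched an arm domain of another kind. Among other gene types, 78 of 926 transcribed pseudogenes (8.42%), 197 of 3480 long non-coding RNA genes (5.66%) and 21 of 326 miRNA genes (6.44%) touched an unbound domain, beside 6.27% of all nuclear genes, whereas 7 of 625 tRNA genes (1.12%) did.

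The strongest unbound domains of at least 1 kb lay over genes without common names. The highest fold, 4.16, belonged to a domain of 2075 bp over AT5G24879 and AT5G24880 (chromosome 5, 8552269 to 8554343). It lay 5009 bp from the nearest FIE region and 1166 bp from the nearest listed region of any of the 3 proteins. Next came AT1G29000 with 4.05 (chromosome 1, 10111824 to 10114580), AT2G02770 with 4.02 (chromosome 2, 778092 to 780397) and AT5G38030 with its neighbouring pseudogene at 3.97 (chromosome 5, 15171143 to 15176513). The highest fold of any arm domain was 4.40. Of the 8 strongest, 3 touched no protein-coding gene: a domain of 4624 bp at the non-coding RNA gene AT1G08283 (3.9), one of 1855 bp at AT5G07425 and AT5G07435 (3.88) and one at the transcribed pseudogene AT2G14550 (3.83). The remaining one, over AT3G24250, had 3.88.

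At the width limit, the widest unbound domains were 5991 bp over the stress-responsive gene DIN11 and AT3G49630 (fold 2.85), 5984 bp over FMO GS-OX1, a flavin monooxygenase of glucosinolate side chains, and AT1G65870 (3.22), and 5968 bp over the chitinase gene ChiC and AT4G19800 (3.25). The narrowest domains without a bound region that missed the limit were 6004, 6033 and 6050 bp wide, with folds of 2.91, 2.71 and 3.01, and the last of them touched the same FMO GS-OX1 gene from the other side. The domain with the most protein-coding genes, 5, lay over NHL12, AT2G35965, AT2G35970, YLS9 and LOG2 (chromosome 2, 15106711 to 15112315; fold 3.13).

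Named genes were read against the share of all protein-coding genes, 7.15% in unbound domains, 3.63% in shorter domains with FIE and 6.92% in the wider domains. Of the 5093 protein-coding genes in any arm domain, 38.5% touched an unbound one. Counted in the same way, the share was 34.6% for wax, cutin and suberin genes, 38.9% for cytochrome P450 and 40.0% for MYB genes. It was lower for terpene (26.7%) and WRKY genes (27.3%), and higher for flavonoid (7 of 11, 63.6%) and auxin genes (7 of 13, 53.8%). A share of a list above 7.15% can thus go with frequent H3K27me3 of any kind. The lists were not tested, and nothing below is claimed to be particular to a list.

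The regulators of flower and meristem identity, long known as Polycomb targets, mostly lay in the other kinds of domain. Of 26 MADS-box floral identity genes, 24 were in some arm domain, but 3 were in unbound ones (11.5%), against 11 in shorter domains with FIE (42.3%) and 10 in the wider domains (38.5%). The 3 were AGL17 (fold 3.03, chromosome 2, 9617601 to 9623014), AGL13 (3.01, chromosome 3, 22616248 to 22621477) and AGL19, a promoter of flowering (2.74, chromosome 4, 12023466 to 12027963). Each domain was between 4498 and 5414 bp wide and covered at least 99% of its gene. Of 42 meristem and organ identity genes, 3 touched an unbound domain (7.14%), 15 a shorter domain with FIE and 19 a wider one. The 3 were WOX8, a homeobox gene of the early embryo (fold 3.41), the KNOX gene KNAT2 (3.08) and WOX12 (2.98), a homeobox gene linked to root formation. At WOX8 the domain was a fragment of 652 bp covering 23.4% of the gene, which also touched another kind of domain. The WOX12 domain lay 480 bp from a FIE region, whereas the WOX8 fragment lay 54573 bp from one.

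Of 36 flowering time genes 2 touched an unbound domain (5.56%), beside 2 in shorter domains with FIE and 4 in wider domains. TSF, the close relative of the florigen gene FT, was wholly covered by a domain of 3648 bp with a fold of 2.71 (chromosome 4, 11000314 to 11003961), 28466 bp from the nearest FIE region. RAP2.7, also TOE1, a repressor of flowering, was touched over 3.94% of its length.

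Of 28 genes of the endosperm and the type I MADS-box class 6 touched one (21.4%), 2 a shorter domain with FIE and 3 a wider domain, and all 6 were covered over at least 93.0% of their length. PHE1, an imprinted gene of the seed and a known PRC2 target, lay in a domain of 4410 bp, shared with CYP96A3, with a fold of 3.22 (chromosome 1, 24265005 to 24269414). Its close copy AGL38, also PHE2, had a separate domain of 1406 bp with 3.51 (chromosome 1, 24254640 to 24256045). Reads from such near-identical copies may be shared between them, so their folds are uncertain. AGL96 had 3.21, AGL58 had 2.97 in a domain shared with AGL59, and FWA, an imprinted homeobox gene, had 2.71. FIS2, which encodes the seed-specific zinc finger subunit of PRC2, had 2.74 (chromosome 2, 14992549 to 14996464) and was the only one of 8 PRC2 core genes in an unbound domain. Among seed regulators 1 of 18 qualified, MYB118, a regulator of endosperm maturation, with a fold of 3.55 over the whole gene. Shorter domains with FIE held 5 of the 18 (27.8%) and wider domains 3 (16.7%). Of 24 storage and late embryo genes, 2 qualified, the dehydrin gene RAB18 (3.25, in a domain with 3 other protein-coding genes) and the oleosin gene OLEO4 (3.00). Wider domains held 5 of the 24 (20.8%) and shorter domains with FIE 1.

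Genes of specialised metabolism formed several groups. Of 29 flavonoid and seed coat genes 7 touched an unbound domain (24.1%), against 2 in shorter domains with FIE and 2 in wider domains. They included the regulators TT8 (fold 3.33), MYB114 (3.27), TT1 (2.90) and MYB113 (2.67), and the enzyme genes BAN (anthocyanidin reductase, 3.21), DFR (dihydroflavonol reductase, 2.90) and TT10 (a laccase, 2.77). The neighbours MYB113 and MYB114 lay in separate domains, of 3549 and 3410 bp, and the first held another protein-coding gene as well. Coverage differed between members, since DFR, TT1, MYB113 and MYB114 were wholly covered, TT8 over 36.0% and BAN over 9.19%.

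Of 37 genes for wax, cutin and suberin, the lipid barriers of the plant surface and root, 9 touched an unbound domain (24.3%). Shorter domains with FIE had 7, those with a factor alone 1 and wider domains 10, and a gene can count under more than 1 kind. In all, 26 of the 37 (70.3%) lay in some arm domain. The suberin regulators MYB107 (fold 3.49), MYB41 (3.08) and MYB9 (2.94) were covered over at least 97.2%. The acyltransferase genes GPAT7 (2.96) and GPAT5 (2.75) were wholly covered, KCS6, an elongase of wax chains, had 2.79 over 91.9%, and FAR5 (2.69) and CYP86B1 (2.68) were covered in part. The wax gene CER1 (3.00) met a fragment of 720 bp over 17.3% of its length, 372 bp from a FIE region, and also touched another kind of arm domain.

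Of 21 terpene and triterpene genes 4 touched an unbound domain, but 12 lay in wider domains and 0 in shorter domains with FIE. The 4 were CYP708A2, the thalianol hydroxylase (3.52), BARS1, a baruol synthase (3.43), CYP705A12 (3.13) and PEN3, here the triterpene synthase gene AT5G36150 (3.03). BARS1 was covered over 31.2% and also touched another kind of arm domain. Of 34 defence genes 4 qualified, VSP2 (3.03), FMO1 (2.98), and the defensin genes PDF1.3 and PDF1.2b, which shared a single domain of 4144 bp (2.91) lying 87560 bp from the nearest FIE region. Wider domains also held 4 of the 34, and shorter domains with FIE held 2.

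Hormone genes were read in the same way. Of 29 auxin synthesis and transport genes 7 lay in unbound domains (24.1%), 5 in shorter domains with FIE and 1 in a wider domain. They were the tryptophan aminotransferase gene TAR1 (3.43), the flavin monooxygenase genes YUC10 (2.97), YUC8 (2.91) and YUC9 (2.74), the carrier genes LAX1 (2.90) and PIN5 (2.86), and the kinase gene WAG1 (2.81). All but LAX1 (39.5%) were covered over at least 83.7%. Of 31 gibberellin and abscisic acid genes 6 touched an unbound domain (19.4%), 3 of them over at least 50% of the gene. Shorter domains with FIE held 3 of the 31 and wider domains 1. The gibberellin oxidase genes GA20OX4 (3.15) and GA20OX3 (3.00) were covered over 100% and 99.5%, and GA2OX8 (3.01) over 12.7%. The abscisic acid genes NCED6 (4.01), CYP707A4 (2.94) and NCED3 (2.76) were covered over 14.7%, 68.9% and 10.7%. The high value of NCED6 belonged to a fragment of 584 bp at 1 side of the gene.

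Anther and pollen genes gave 4 of 33 (12.1%), HAP2, a sperm protein of gamete fusion (3.11), EXL4 (2.98), AMS, a regulator of the tapetum (2.94), and A7 (2.90). Wider domains held more, 6 of the 33 (18.2%), and shorter domains with FIE 2. HAP2 and AMS were covered over 26.4% and 49.7%. None of 32 photosynthesis genes and none of 21 housekeeping genes touched an unbound domain.

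**Figure D5:**
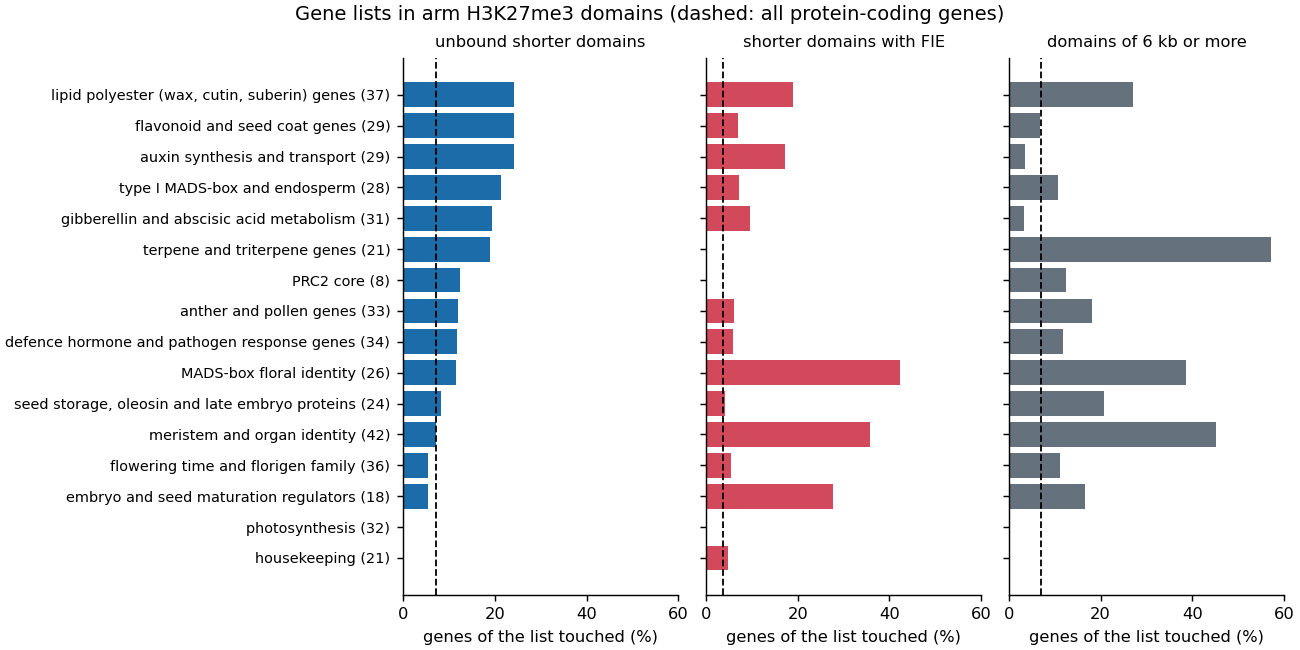
Share of each gene list touched by unbound shorter domains (left), by shorter domains with FIE (middle) and by domains of 6 kb or more (right), with the number of genes in brackets. Dashed lines give the share of all protein-coding genes, 7.15%, 3.63% and 6.92%. Floral and meristem lists reach 35.7% to 45.2% in the bound and wide domains and at most 11.5% in unbound ones, while flavonoid genes reach 24.1% in unbound domains and 6.90% in each of the others.

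Families grouped by symbol gave larger numbers. Of 121 MYB transcription factor genes 26 touched an unbound domain (21.5%), and all 26 were covered over at least 50% of their length. The family was also frequent in shorter domains with FIE (9.09%) and in wider domains (19.8%), beside shares of 3.63% and 6.92% for all protein-coding genes. After MYB118 and MYB107 the highest folds were those of MYB67 (3.40) and of MYB0, which is GL1, the regulator of leaf hairs (3.40).

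Cytochrome P450 genes, a large family of oxidising enzymes, gave 35 of 241 symbols (14.5%), against 15 in shorter domains with FIE and 35 in wider domains. The symbol CYP5, counted here, belongs to a cyclophilin and was touched over only 1.44%. The highest folds were at CYP706A2 (3.54), CYP708A2 (3.52), CYP71B5 (3.39) and CYP71A25 (3.34). The CYP71B5 value belonged to a fragment of 331 bp over 17.2% of the gene. CYP706A6 and CYP706A7 lay in separate domains of 1890 and 1994 bp, and CYP706A1 shared a domain of 4470 bp with LBD32.

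Of 36 expansin genes, whose products loosen cell walls, 7 touched an unbound domain (19.4%), with the highest folds at EXPA24 (3.79) and EXPA18 (3.7), a gene of root hairs. EXPA2, expressed in germinating seed, had 2.84. Of 35 LBD transcription factor genes 7 qualified (20%), led by LBD28 (3.48), LBD13 (3.40) and LBD31 (3.29), and all 7 were covered over at least 72.2%. Shorter domains with FIE and wider domains each held 4 of the 35 (11.4%). WRKY genes gave 9 of 67 (13.4%), with WRKY72 (3.35) and WRKY71 (3.26) highest. Here shorter domains with FIE held more, 12. NAC genes gave 7 of 81 (8.64%), and shorter domains with FIE and wider domains held 11 and 13. The 4 IAA genes of 24, which encode auxin repressors, were IAA29 (2.82), IAA14 (2.81), IAA33 (2.77) and IAA6 (2.69), all below the median fold of 2.90. ABC transporter genes reached 10 of 124 (8.06%), but only 3 were covered over at least 50%, ABCG21 (3.48), ABCG9 (2.90) and ABCG17 (2.73). Wider domains held 12 of the 124. EMB genes, needed for embryo development, gave 2 of 160 (1.25%), and core histone genes 0 of 18.

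Of 326 miRNA genes 21 touched an unbound domain (6.44%), beside 6.27% of all nuclear genes, and all 21 were covered over at least 92.0%. The highest folds were at MIR780 (3.36), MIR869 (3.07), MIR778 and MIR2939 (3.04 each). MIR172c shared its domain of 5839 bp with GPAT5, and an AZF1 or BPC1 region lay 1145 bp from it.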

How the data were processed

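The authors deposited 4 peak lists (FIE, AZF1, BPC1 and H3K27me3), which stand for 21 samples in 7 groups of 3. Build TAIR10 and the programs MACS2 2.1.1.20160309, Bowtie2 and bedtools are named per the submitters' processing notes. Settings, and how replicates were combined, are not given in these sources. Deposited for each region were a fold enrichment (a ratio over the control), a −log10 q and a score. The score was the integer part of 10 times the −log10 q in 100% of nuclear rows and was used for nothing else. A deposited summit offset, in another unit (bp from the region start), placed FIE, AZF1 and BPC1 summits. The 4 columns of −log10 p were not used. No row had a −log10 q under 10, and many call numbers were missing, which was read as calls left out of the lists.

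The members, gene lists and rules for naming genes were chosen with earlier results of these data known. Overlaps counted from 1 bp. Coordinates are 1-based on TAIR10. Genes came from a RefSeq table of TAIR10.1 with 37899 nuclear genes, without strand; no gene coordinate is printed. Its nuclear positions were assumed to match TAIR10. In a check, 62.5% of domain midpoints lay in protein-coding genes, and 43.5% to 47.2% after shifts of 1 or 2 kb; after shifts of 5 and 20 kb the share was 59.3% to 63.3%, so it speaks only to offsets of 1 or 2 kb. A gene touched a domain from 1 bp of its body. Of 489 names written in 16 lists, 463 were matched, 16 by hand; 41 families were taken by symbol, of which 1 is not reported here. Genes named are those of the strongest, widest and most gene-rich domains and up to 4 per list or family at the highest folds; further members of lists are named for completeness. Intervals are 95% Wilson intervals over domains and cover counting error only; domains near each other are not independent. The assignment to kinds was right for 2000 of 2000 simulated domains. No set test or resampling was done, and promoter sequences were not analysed here. Analyses used Python 3.11.15, pandas 2.3.3, numpy 2.4.6 and scipy 1.17.1. Alternatives tried were other width limits, a gap to bound regions, a partial overlap, a stricter −log10 q, joined domains and other ways to assign genes.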

Additional observations from a re-analysis of the deposited data

Results flagged for a closer look

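The H3K27me3 list also held 11 regions on the organelle genomes, which the comparisons above leave out: 9 mitochondrial regions with a median fold of 2.84 and 2 chloroplast regions with 3.68. They are given because listed regions appeared in data outside the comparisons, above the limit that a count of 0 allows. Over all 11 the median fold was 2.87, near the 2.90 of the unbound shorter domains. The origin of the organelle regions was not tested.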

How the results depend on the processing

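The number of domains was 1624 to 1891 with width limits of 5000 and 8000 bp, with bound regions kept 1000 bp away, with an overlap counted from 50% of the bound region, or with domains under 500 bp apart joined. It fell to 702, all of them among the 1761, with a −log10 q above the nuclear median of 13.42; the protein-coding genes then numbered 831, the share touching one was 86.2%, the median fold 3.18 and the median width 2595 bp. The median width was 2284.5 and 2584 bp with limits of 5000 and 8000 bp. With genes extended by 1000 bp, 90.7% of domains touched a protein-coding gene and 3144 genes were touched; with at least 50% of the gene covered, the share was 68.5%. Under that rule 13 of 16 list counts stayed within 1.5 times, and those of flowering time genes (1), anther and pollen genes (2) and gibberellin and abscisic acid genes (3) were lower. No paired analysis was possible because the lists hold no values for single replicates, and for the same reason no replicate could be left out. Depth per region is unknown. The median −log10 q of the set was 12.58, and the list begins at 10, so its size depends on the authors' cut-off.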

Other observations

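Further families, grouped by symbol, are given here as counts of genes touched by an unbound shorter domain, beside 7.15% of all protein-coding genes. Serine carboxypeptidase-like genes gave 5 of 49, with scpl36 and scpl37 in 1 shared domain (fold 3.37), while 8 lay in wider domains. The UMAMIT genes for amino acid transporters gave 6 of 45, led by UMAMIT10 (3.28). Glycosyltransferase UGT genes gave 7 of 58, with UGT71B8 wholly covered (3.05), and the cell wall XTH genes 4 of 30, led by XTH6 (3.13). CLE peptide genes gave 3 of 30, led by CLE2 (3.33), and RALF peptide genes 2 of 34, while 9 lay in wider domains. Of 40 BGLU glucosidase genes 10 lay in wider domains and 2 in unbound ones, and of 10 terpene synthase TPS genes 6 lay in wider domains and 0 in unbound ones.

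Counts in other regulator families were 3 of 37 for HB homeobox, 2 of 31 for ERF and DREB and 0 of 13 for bHLH. Small secreted protein families gave 5 of 81 LCR, 1 of 28 SCRL and 3 of 13 PDF symbols, of which PDF1 is a protodermal factor and not a defensin. Among channels and transporters, CNGC gave 3 of 18 (none covered over 50%), GLR 1 of 18, SWEET 1 of 15 and PUP 2 of 18. Enzyme families gave 2 of 47 for GST, 2 of 21 for KCS, 1 of 4 for PRX or PER, 1 of 7 each for GDSL and GLP, and 2 of 40 for BGLU. Kinases gave 3 of 40 for CRK and 3 of 50 for CIPK and CPK. The rest were 1 of 30 AGP, 0 of 9 LTP, 0 of 16 SAUR and 3 of 44 ribosomal protein genes.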
